A study of Mus musculus with 12 samples.

Results

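Bivalent regions carry H3K4me3, a mark of promoters, and H3K27me3, the mark placed by Polycomb, on the same stretch of chromatin. The regions described here were bivalent in KMT2D WT mouse melanoma cells and had no H3K4me3 peak in KMT2D mutant cells. They were chosen from the peak lists of both genotypes. Each is an autosomal WT H3K4me3 peak that overlapped a WT H3K27me3 peak by at least 1 bp, overlapped no WT H3K27ac peak, and overlapped no mutant H3K4me3 peak. There were 394 such regions among 14723 WT H3K4me3 peaks. Of these peaks 14327 were autosomal, 2415 of the autosomal ones were bivalent, and 1676 of the bivalent ones lacked WT H3K27ac. The other 1282 of the 1676 kept an overlapping mutant H3K4me3 peak and are used below for comparison.

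H3K4me3 is laid down at promoters by COMPASS-type methyltransferases, and H3K27me3 by Polycomb repressive complex 2, which keeps genes silent. Regions with both marks are known from embryonic stem cells, where they sit at promoters of developmental genes that are held at low expression, and they also occur in differentiated and tumour cells. KMT2D (also called MLL4) is the methyltransferase best known for H3K4me1 at enhancers, while H3K4me3 at bivalent promoters of mouse embryonic stem cells is mainly attributed to its relative KMT2B (MLL2). H3K27ac marks active promoters and enhancers, and H3K79me2 transcribed gene bodies.

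ChIP-seq libraries of 5 marks and an input were made from mutant and from WT cells, 12 samples in all, without replicates. Mutant cells came from iBIP;KMT2DL/L mice and WT cells from iBIP;KMT2D+/+ mice. Both genotypes share the iBIP alleles: a Tyr-CreERT2 transgene, in which the tyrosinase promoter drives a tamoxifen-dependent Cre in melanocytes, the doxycycline-controlled Rosa26-rtta with TetO-BRAFV600E, and conditional PTENL/L and INK/ARFL/L, on a background mixed from FVB and B6. In both, doxycycline and 4-OHT (1 uM) on the ears started auricular tumours, from which the cells were isolated. The number of animals or cell lines behind a library is not given in the sources used here, and the age of the mice is not given either. KMT2D deletion and melanocyte identity could not be checked, because a peak list holds no read counts or gene names.

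Each list holds the peaks that passed the authors' threshold in a single library, and the read depth is unknown. Here "no peak" means that nothing passed that threshold. With 1 library per genotype there is no replicate check and no test between genotypes. Intervals are exact (Clopper-Pearson) 95% binomial intervals for shares and binomial order-statistic 95% intervals for medians, and they cover counting error only. The H3K4me3 list held 13691 peaks over 32.4 Mb in the mutant and 14723 over 30.8 Mb in WT. The H3K27me3 list held 14712 peaks over 37.8 Mb in the mutant and 13277 over 27.8 Mb in WT. Coordinates are on mm9, counted from 1. Regions carry no gene names, since no gene annotation on mm9 was used here.

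The 394 regions were among the weakest and narrowest H3K4me3 peaks of the WT list. The score, which the authors' peak caller gave and which grows with −log10 p (by its range, 10 points per unit), ran between 90.16 and 757.48 on them. Its median was 150.4, with quartiles of 113 and 214. The lowest score anywhere in the WT H3K4me3 list was 90.02, so many of the 394 peaks lay close above the threshold: 46 scored under 100, 122 under 120, and 281 under 200. The regions that kept H3K4me3 had a median WT score of 398, and all autosomal WT H3K4me3 peaks a median of 950. A score below 336, the lower quartile of the autosomal WT list, was found for 370 of the 394 regions and for 540 of the 1282 that kept the mark.

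Width followed the score. The 394 peaks were 571 to 2846 bp wide with a median of 1077.5 bp, against a median of 1605 bp for the regions that kept H3K4me3 and 1880 bp for all autosomal WT peaks. Across the 394 regions, score and width had a Spearman rho of 0.769. Both values come from the same calls in 1 library, and this is a description only. Within score groups the 394 were still slightly narrower, with medians of 939.5, 1156.5 and 1345 bp in the 3 weakest groups described below, against 969, 1222 and 1469 bp for the regions that kept H3K4me3. Since the absence of a mutant peak chose the regions, these scores and widths describe the choice.

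The 5 regions nearest to a mutant H3K4me3 peak without touching it lay 46, 55, 83, 85 and 113 bp away, with WT scores of 104, 107, 193, 90.3 and 101. On the other side, the 5 kept regions with the least overlap shared 178, 251, 314, 343 and 353 bp with a mutant peak, at WT scores of 102, 105, 93.9, 91.0 and 297. Apart from 193 and 297, these scores were close to the lowest in the list. For bivalence, WT H3K27me3 covered less than 50% of the region at 54 of the 394.

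The share of WT H3K4me3 peaks with no mutant peak was larger for bivalent regions without H3K27ac than for the list as a whole. It was 23.5% (21.5 to 25.6, 394 of 1676), against 11.4% of all 14327 autosomal WT H3K4me3 peaks (1630 peaks). The contrast that gave these shares also chose the regions. Acetylated WT peaks without H3K27me3 lacked a mutant peak in 6.59% of cases (6.12 to 7.09), and bivalent regions with H3K27ac in 3.52% (2.31 to 5.11). WT peaks with neither H3K27ac nor H3K27me3 lacked one more often, in 31.6% (29.4 to 33.9).

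The comparison was repeated at like scores. The 1676 bivalent regions without H3K27ac were split at 152, 241, 387 and 663 into 5 equal groups by score. In the weakest group 59.7% (54.2 to 65.0, 200 of 335) had no mutant H3K4me3 peak. The share was 35.2% (30.1 to 40.6) in the second group, 19.3% (15.3 to 24.0) in the third, 2.99% (1.44 to 5.44, 10 of 334) in the fourth and 0.298% (1 of 336) in the strongest. At the same scores, all autosomal WT peaks gave 61.3%, 36.5%, 16.4%, 2.77% and 0.0681%. Acetylated peaks without H3K27me3 gave 55.1% in the weakest group (51.2 to 58.9) and 14.1% (11.3 to 17.2) in the third. Peaks with neither mark gave 70.7% in the weakest group (66.6 to 74.6), above the interval of the bivalent regions. In the other 4 groups the intervals of the bivalent regions overlapped those of both other classes. With the WT H3K4me3 list limited to its 13691 best-scoring peaks, the length of the whole mutant list, there were 261 regions in place of 394. With a WT score of at least 200, a limit chosen after seeing the data, there were 113. Both limits removed weak WT peaks and left the mutant list as it was.

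**Figure D1:**
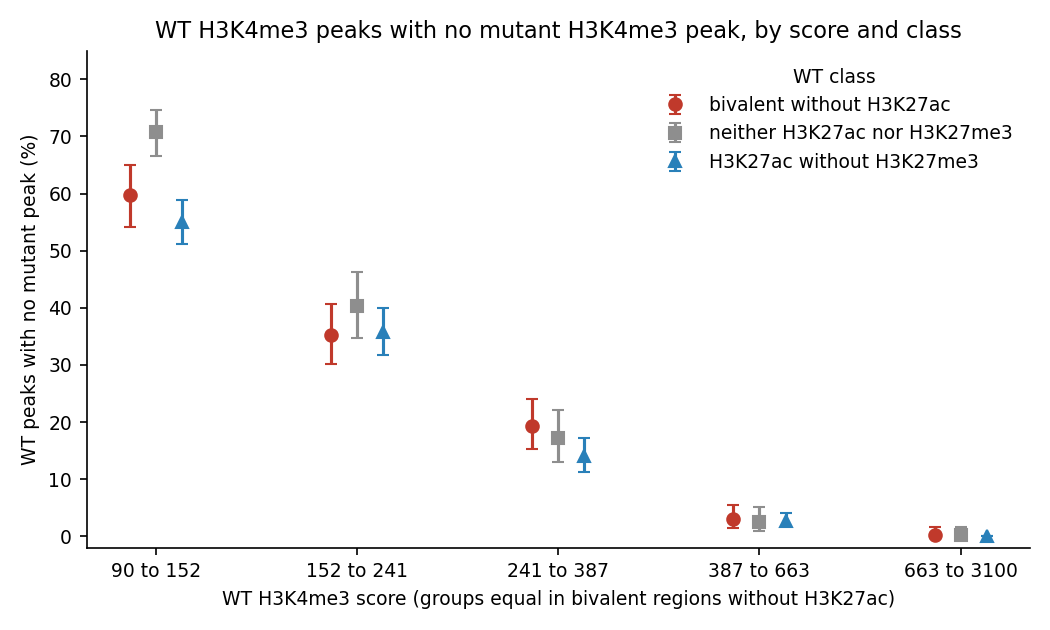
Share of autosomal WT H3K4me3 peaks with no mutant H3K4me3 peak (y axis, %) in 5 ranges of WT H3K4me3 score (x axis), for bivalent regions without H3K27ac, peaks with neither H3K27ac nor H3K27me3, and acetylated peaks without H3K27me3. Points are shares and bars exact 95% binomial intervals; bivalent regions run between 59.7% in the weakest and 0.298% in the strongest range, and in the weakest range peaks with neither mark lie highest, at 70.7%, and acetylated peaks lowest, at 55.1%.

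In the lists as used here, the opposite case was less frequent. Of 1534 mutant bivalent regions without mutant H3K27ac, 154 had no WT H3K4me3 peak, which is 10.0% (8.58 to 11.7). Over all autosomal mutant H3K4me3 peaks, 6.09% had no WT peak. The mutant list was shorter than the WT list, at 13691 against 14723 peaks. With lists of equal length, for which only the weakest WT peaks were removed, the share of WT bivalent regions without a mutant peak was 17.7% in place of 23.5%. The opposite case was not counted with such lists or at like scores, so the part of list length was not tested. The 154 regions were also weak in their own list, with a median mutant score of 138, and 146 of them had WT H3K27me3.

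H3K27me3 was still present at most of the 394 regions in the mutant. A mutant H3K27me3 peak overlapped 351 of them, or 89.1% (85.6 to 92.0). Mutant H3K27me3 was found at 16.2% of all autosomal WT H3K4me3 peaks, and 64.9% of all autosomal WT H3K27me3 peaks overlapped a mutant one. The share was 90.5% (88.7 to 92.0) for the bivalent regions that kept H3K4me3, an interval that overlaps that of the 394. H3K27me3 was the sole mutant mark of the 5 at 345 of the 394 regions. At 41 regions no mutant list had a peak. The rule had left out regions with mutant H3K4me3 or WT H3K27ac, so these counts partly follow from the choice of the regions.

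The length of H3K27me3 left on the regions was close to that in WT. The mutant had a median of 958 bp (924 to 990) per region, with quartiles of 662 and 1165 bp and a highest value of 2846 bp. WT had a median of 961 bp (941 to 997), with quartiles of 746 and 1165 bp. Mutant H3K27me3 covered the whole region in 281 cases and WT H3K27me3 in 278, and 247 regions were wholly covered in both genotypes. As shares of the 394 these were 71.3% (66.6 to 75.7), 70.6% and 62.7%, above the 59.1% (56.4 to 61.8), 56.2% and 46.8% of the regions that kept H3K4me3. At like scores the intervals overlapped. In the 3 weakest score groups mutant H3K27me3 wholly covered 76.0%, 72.0% and 60.0% of the regions without mutant H3K4me3. Of the kept regions in these groups it wholly covered 81.5%, 69.1% and 68.6%. For WT H3K27me3 the shares were 74.5%, 69.5% and 63.1%, against 78.5%, 67.7% and 64.9% of the kept regions. The kept regions were also wider, and the part of width in the difference over all scores was not tested. The covered length was greater in the mutant at 58 of the 394 regions, the same at 247 and shorter at 89. At the kept regions it was greater at 311, the same at 600 and shorter at 371. The region's own width limits these lengths, so a wholly covered region shows no more than its width.

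**Figure D2:**
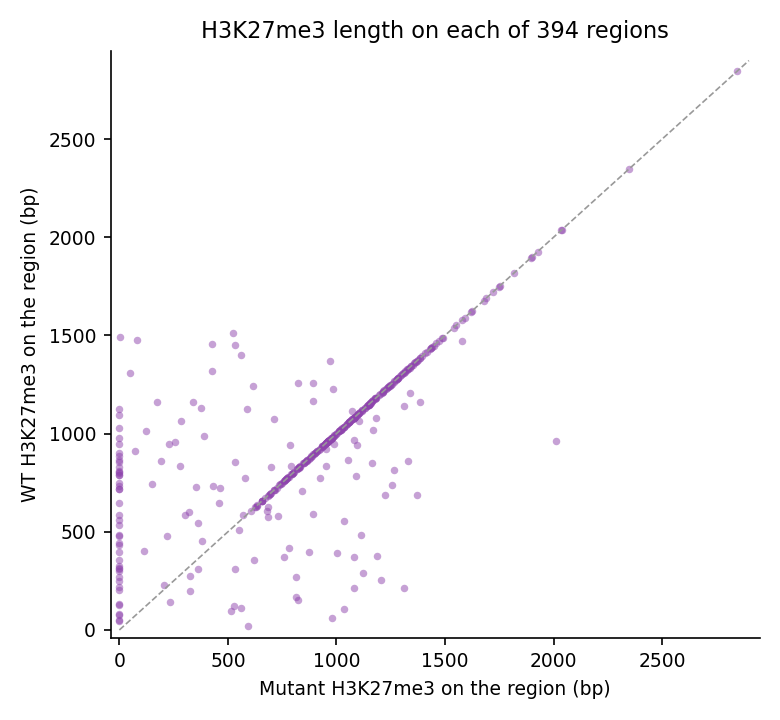
Length of H3K27me3 peaks on each of the 394 regions in the mutant (x axis, bp) and in WT (y axis, bp), 1 point per region, with the line of equal length dashed. The 247 regions wholly covered in both genotypes lie on the line, and the 43 regions without mutant H3K27me3 lie at 0 on the x axis.

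Beyond the regions, mutant H3K27me3 reached farther than WT H3K27me3. The mutant H3K27me3 peak on a region had a median length of 6034 bp where there was one, against 4263 bp for the WT peak on the same 351 regions. The mutant peak was longer than the WT peak at 268 of the 394 regions, or 68.0% (63.2 to 72.6). At the kept regions with mutant H3K27me3 the medians were 4909 bp in the mutant and 3975.5 bp in WT. There the mutant peak was longer at 802 of 1282, or 62.6% (59.8 to 65.2), an interval that overlaps that of the 394. Within 20000 bp on each side of the centre, H3K27me3 covered a median of 7671 bp (6732 to 8610) in the mutant and 5348 bp (4783 to 6316) in WT, and the mutant had more at 294 of 394 regions. The summed mutant length in these windows was 1.26 times the WT length. Around the regions that kept H3K4me3 the ratio was 1.19, with more in the mutant at 849 of 1282. The whole mutant H3K27me3 list was longer as well, at 37.8 against 27.8 Mb, and its part in these values was not tested.

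The profile around the centres differed in shape between genotypes. In the 500 bp next to the centre, mutant H3K27me3 covered 79.8% and WT H3K27me3 86.5% of the bases, averaged over the 394 regions. At 2000 to 2500 bp from the centre the order was the other way, with 55.4% in the mutant and 43.1% in WT. At 10000 to 10500 bp the mutant had 16.7% and WT 11.0%. The regions that kept H3K4me3 showed the same order at these distances, with 73.2% in the mutant and 80.7% in WT next to the centre, 52.1% and 44.0% at 2000 bp, and 12.0% and 9.14% at 10000 bp. The rule required a WT H3K27me3 peak on every region of both kinds, and no such peak in the mutant. The lower mutant cover next to the centre thus goes with the choice of the regions, and the kept regions share that choice.

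**Figure D3:**
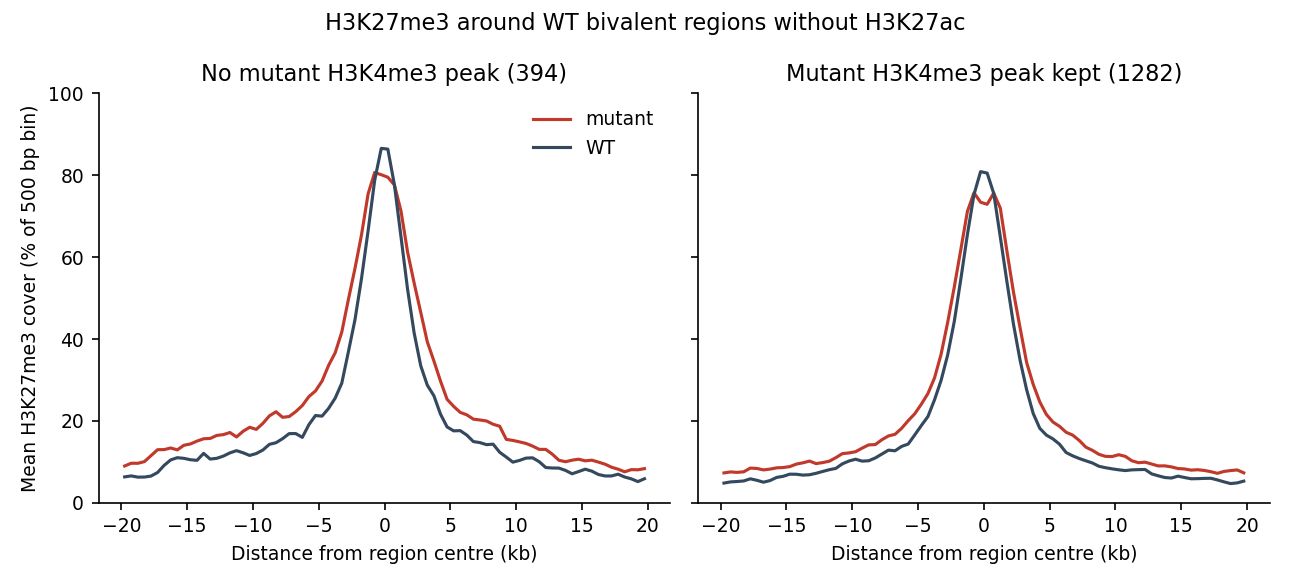
Mean cover by H3K27me3 peaks (y axis, % of each 500 bp bin) against distance from the region's centre (x axis, kb) in mutant and WT cells, for the 394 regions with no mutant H3K4me3 peak and for the 1282 that kept it. Each line is 1 library per genotype without an error. The mutant line lies below WT at the centre and above it from 2 kb outwards in both panels. All regions were chosen to have a WT H3K27me3 peak, so the order at the centre goes with that choice.

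How often H3K27me3 persisted went with the length of the WT H3K27me3 peak. The 394 regions lay on 386 WT H3K27me3 peaks, taking for each region the longest. The WT peak lengths of the 1676 bivalent regions were split into 3 equal groups at 2470 and 5189 bp. In the shortest group mutant H3K27me3 was on 91 of 130 of the regions without mutant H3K4me3, or 70.0% (61.3 to 77.7). It was on 119 of 123 in the middle group and on 141 of 141 in the longest. Among regions that kept H3K4me3 the shares were 75.1% (70.7 to 79.1) in the shortest and 96.5% in the middle group, and all 419 had it in the longest, so the intervals overlapped in each group.

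WT H3K27me3 peaks with no WT H3K4me3 peak on them gave a further comparison at the same lengths. Of the WT H3K27me3 peaks of up to 2470 bp that held at least 1 of the 394 regions, 75.4% (67.1 to 82.5, 98 of 130) overlapped a mutant H3K27me3 peak. Those that held kept regions did in a like share, 74.8% (70.4 to 78.9, 321 of 429). Of those with no H3K4me3 peak, 52.7% (51.6 to 53.7, 4696 of 8915) did. The median lengths within this range differed, at 1380.5 bp for the peaks that held the regions, 1415 bp for those that held kept regions and 696 bp for those with no H3K4me3. In the middle range 99.2% of the peaks that held the regions and 96.9% of those with no H3K4me3 did, and in the longest range all 134 and all 690 did.

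Mutant H3K27me3 on the regions varied little with the WT H3K4me3 score. The shares of the 394 regions with mutant H3K27me3 were 90.5% in the weakest score group (181 of 200), 89.0% in the second (105 of 118) and 84.6% in the third (55 of 65). Regions that kept H3K4me3 had it in 95.6%, 89.4% and 89.7% of cases in these groups. The intervals of both kinds overlapped in each, for example 85.6 to 94.2 and 90.6 to 98.4 in the weakest group. The fourth and strongest groups held 10 and 1 of the 394 regions.

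The 43 regions without mutant H3K27me3 had short and weak H3K27me3 in WT. Their WT H3K27me3 peak had a median length of 970 bp and a median −log10 q of 3.96. At the 351 regions with mutant H3K27me3, the medians of the WT peak were 4263 bp and 5.70. WT H3K27me3 covered a median of 45.4% of the 43 regions. The 122 kept regions without mutant H3K27me3 were alike, with WT medians of 932.5 bp, 3.93 and 43.7%. The H3K4me3 scores of the 43 were like those of the 351, with a median of 157 (143 to 209) against 148 (141 to 159). The nearest mutant H3K27me3 peak was within 10000 bp at 19 of the 43, the closest at 6 bp. Of the 43, 1 had a mutant H3K27ac peak, 1 had mutant H3K79me2, and 41 had no mutant peak of the 5 marks.

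The nearest mutant H3K4me3 peak usually lay well outside the region. The gap had a median of 36112.5 bp (30927 to 41925) with quartiles of 13128 and 79725 bp, and ran between 46 and 1413450 bp. A mutant H3K4me3 peak lay within 1000 bp of 12 of the 394 regions, within 5000 bp of 50, within 10000 bp of 81 and within 100000 bp of 313. All but 2 had one within 1000000 bp. Other WT H3K4me3 peaks lay at a like distance from these regions. The gap from the same regions to the nearest other WT H3K4me3 peak had a median of 30282.5 bp (25927 to 36283), with 94 regions within 10000 bp and 316 within 100000 bp. For the regions that kept H3K4me3, the median gap to another WT H3K4me3 peak was longer, at 44095 bp (38612 to 49225). Score and distance to mutant H3K4me3 had a Spearman rho of 0.153 across the 394 regions.

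**Figure D4:**
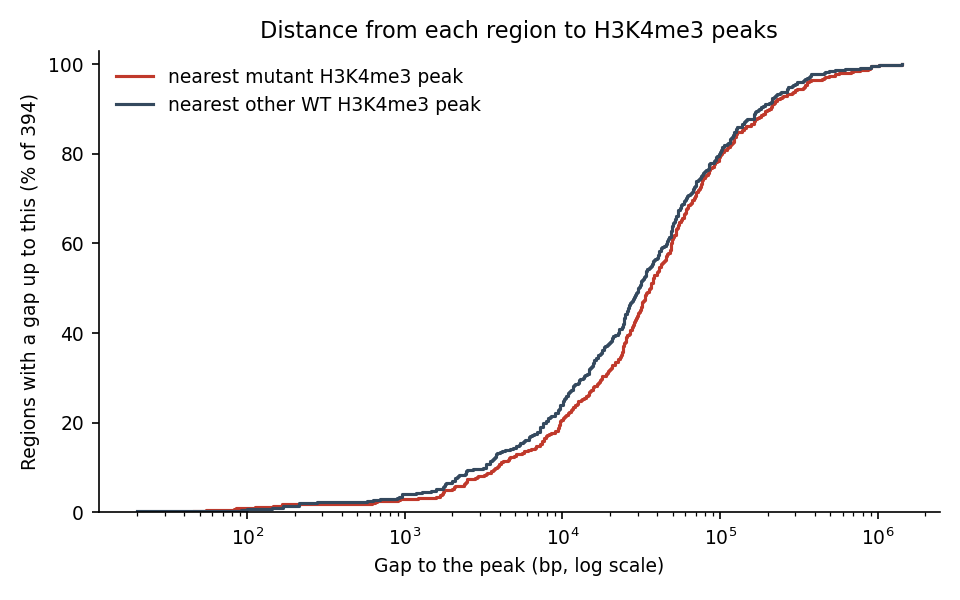
Cumulative share of the 394 regions (y axis, %) by gap in bp (x axis, log scale) to the nearest mutant H3K4me3 peak and to the nearest other WT H3K4me3 peak. The curves run close together, with medians of 36112.5 and 30282.5 bp, and 12 regions have a mutant peak within 1000 bp.

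H3K4me3 peaks next to these regions mostly had a mutant counterpart, as did WT H3K4me3 peaks over the whole list. Another WT H3K4me3 peak lay within 50000 bp of 252 of the 394 regions, or 64.0% (59.0 to 68.7), against 685 of the 1282 that kept H3K4me3, or 53.4% (50.7 to 56.2). Of the 565 neighbours of the 394, 487 kept a mutant H3K4me3 peak, a share of 86.2% (83.1 to 88.9). The same share for neighbours of regions that kept H3K4me3 was 87.3% (85.4 to 89.1, 1139 of 1304). Of all 14327 autosomal WT H3K4me3 peaks, 11.4% had no mutant peak, and of those bivalent without H3K27ac 23.5% had none. Acetylated neighbours of the 394 had a mutant peak in 96.1% of cases (371 of 386). Over all autosomes, 6.59% of acetylated peaks without H3K27me3 and 3.52% of those with it had none. Neighbours that were bivalent without H3K27ac had a mutant peak in 63.7% (54.6 to 72.2, 79 of 124), and 72.8% (67.0 to 78.0, 195 of 268) of such neighbours of the kept regions did. By the rule that chose the regions, such neighbours without a mutant peak are themselves among the 394. The 394 were not left out as neighbours of each other, and 45 of them had another of the 394 within 50000 bp. The shares of neighbours with a mutant peak thus partly count the regions themselves, and their intervals do not allow for that.

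The regions were spread singly over the genome. No other of the 394 lay within 50000 bp of 349 regions, and the other 45 formed 21 groups, of which 3 had 3 regions and none more. A region was alone on its WT H3K27me3 peak in 349 cases, or 88.6%. It shared the peak with an H3K4me3 peak that had a mutant counterpart in 30 cases, and solely with H3K4me3 peaks that had none in 15. Of the regions that kept H3K4me3, 1156 of 1282 were alone on theirs, or 90.2% (88.4 to 91.7), an interval that includes the 88.6% of the 394. Every autosome held some of the 394. Of the bivalent regions without H3K27ac per chromosome, the share with no mutant H3K4me3 peak ran between 14.0% on chromosome 3 (7.87 to 22.4, 14 of 100) and 31.2% on chromosome 9 (22.8 to 40.7, 35 of 112). These intervals do not overlap, but they are the extremes of 19 chromosomes and were not adjusted for that. Every interval but that of chromosome 3 included 23.5%, the share over all autosomes.

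The 3 groups of 3 regions lay on chromosomes 16, 5 and 13. On chromosome 16 from 17796745 to 17816230, H3K27me3 covered 16517 bp in the mutant and 17824 bp in WT, and 1 of the 4 WT H3K4me3 peaks had a mutant counterpart. On chromosome 5 from 23853768 to 23894399, H3K27me3 covered 11316 bp in the mutant and 9761 bp in WT, and again 1 of 4 WT H3K4me3 peaks had one. On chromosome 13 from 51661864 to 51690810, none of the 3 WT H3K4me3 peaks had a mutant counterpart, and H3K27me3 covered 4887 bp in the mutant and 4317 bp in WT. No H3K27ac peak was in any of these 3 stretches in either genotype.

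H3K4me1, the mark for which KMT2D is best known, was scarce on the regions even in WT. It was on 1 of 394 in the mutant, or 0.254% (0.00643 to 1.41), and on 32 in WT, or 8.12% (5.62 to 11.3). Over all autosomal WT H3K4me3 peaks the shares were 10.8% in the mutant and 25.0% in WT. The regions that kept H3K4me3 had H3K4me1 in 0.936% of cases in the mutant (12 of 1282) and in 9.98% in WT (8.40 to 11.8, 128 of 1282). Regions with and without mutant H3K4me3 thus had WT H3K4me1 in shares whose intervals overlapped. Where WT H3K4me1 was on one of the 394 it covered a median of 946 bp, and the region with mutant H3K4me1 was on chromosome 11 from 117060421 to 117061471. The whole mutant H3K4me1 list held 5358 peaks against 15981 in WT, and the part of that difference in these counts was not tested.

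H3K27ac was on very few of the regions in the mutant. A mutant H3K27ac peak was on 2 of the 394 regions, or 0.508% (0.0615 to 1.82). It was on 63 of 1282 of the regions that kept H3K4me3, or 4.91% (3.80 to 6.24), whose interval lies above that of the 394. In the 3 weakest score groups it was on 0 of 200, 2 of 118 and 0 of 65 of the regions without mutant H3K4me3. Of those that kept it, it was on 1 of 135, 4 of 217 and 15 of 271. The intervals overlapped in each of these groups. With so few regions they were wide, reaching 1.83%, 5.99% and 5.52% for the regions without mutant H3K4me3. The overlap thus cannot show that the shares were alike at like scores. Over all autosomal WT H3K4me3 peaks without WT H3K27ac the share was 7.5%, and over all autosomal WT H3K4me3 peaks 68.8%. H3K79me2 was on 5 regions in the mutant, or 1.27% (0.413 to 2.94), and on 11 in WT, or 2.79% (1.40 to 4.94). Regions that kept H3K4me3 had it in 3.82% of cases in the mutant and 7.41% (6.04 to 8.98) in WT, against 51.5% and 58.3% of all autosomal WT H3K4me3 peaks. H3K79me2 on the regions was not compared at like scores, so the part of score in this difference was not tested.

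Within 10000 bp of the regions the other marks were more frequent. A mutant H3K4me1 peak lay that near to 14 of the 394, or 3.55% (1.96 to 5.89), and a WT one near 70, or 17.8% (14.1 to 21.9). H3K27ac was near 49 in the mutant (12.4%, 9.34 to 16.1) and near 55 in WT (14.0%, 10.7 to 17.8). H3K79me2 was near 28 in the mutant (7.11%, 4.77 to 10.1) and near 45 in WT (11.4%, 8.45 to 15.0). For WT H3K79me2 the regions that kept H3K4me3 stood higher, at 18.0% (16.0 to 20.2), with an interval above that of the 394. In the 3 weakest score groups the values were close, at 10.5%, 11.0% and 10.8% near the regions without mutant H3K4me3 and 11.1%, 9.68% and 9.59% near those that kept it. For WT H3K4me1 and WT H3K27ac the intervals of both kinds of region overlapped, at 18.6% and 12.9% near the kept regions.

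**Figure D5:**
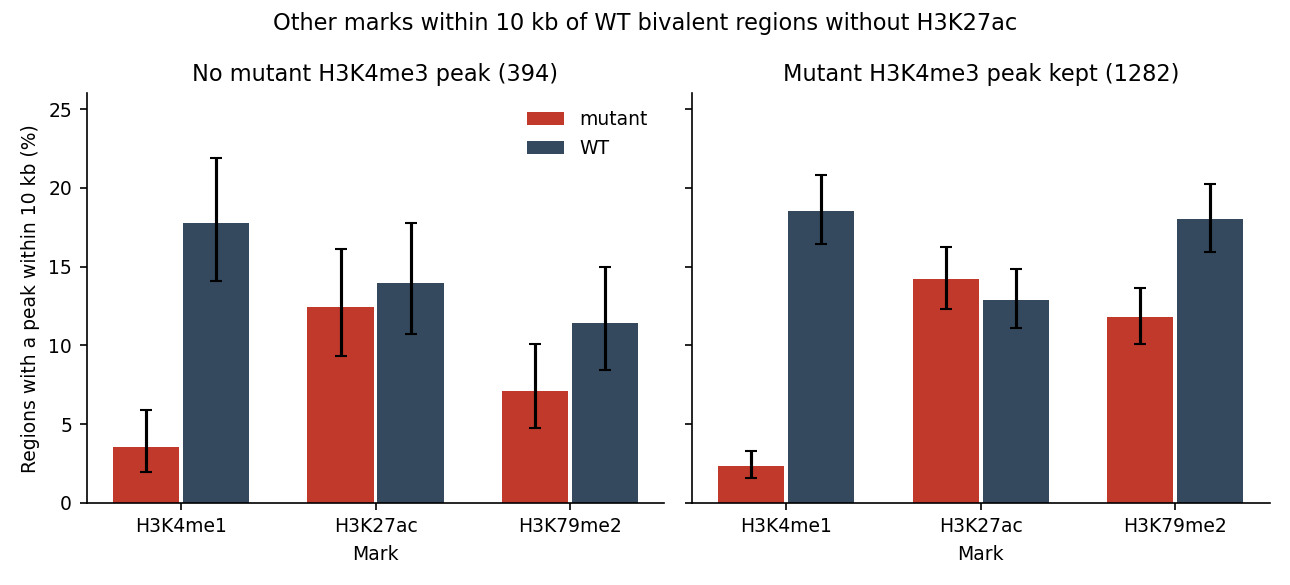
Share of regions with a peak of H3K4me1, H3K27ac or H3K79me2 within 10 kb (y axis, %) in mutant and WT cells, for the 394 regions with no mutant H3K4me3 peak and the 1282 that kept it. Bars are shares and whiskers exact 95% binomial intervals; H3K4me1 is at 3.55% in the mutant and 17.8% in WT near the 394 regions, while H3K27ac is at 12.4% and 14.0%.

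The strongest of the 394 was on chromosome 4 from 125166878 to 125169723, with a WT score of 757. It was also the widest, at 2846 bp. H3K27me3 covered all 2846 bp in both genotypes, on peaks of 12544 bp in the mutant and 9603 bp in WT. No other mark was on it, and the nearest mutant H3K4me3 peak lay 342426 bp away. It is the 1 region of the strongest score group without a mutant H3K4me3 peak, where the other 335 had one.

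The next 4 by score were on chromosomes 2, 5, 12 and 15. The region on chromosome 2 from 131387211 to 131388888 had a score of 593 and was wholly covered by H3K27me3 in both genotypes, as were those on chromosome 5 from 115643174 to 115644763 (score 516) and on chromosome 12 from 16806739 to 16808186 (score 493). The one on chromosome 5 also had WT H3K4me1 over 940 bp and no mutant H3K4me1. The region on chromosome 15 from 103332868 to 103334178 (score 489) had no mutant H3K27me3, against 484 bp in WT, and no mutant peak of any mark. The nearest mutant H3K4me3 was 14829, 33497, 8932 and 46650 bp from these 4 regions.

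Among the widest were the region on chromosome 16 from 17796745 to 17799090 (2346 bp) and those on chromosome 4 from 151504570 to 151506606 (2037 bp), chromosome 11 from 4957521 to 4959555 (2035 bp) and chromosome 4 from 122910549 to 122912561 (2013 bp). With the strongest region these are also the 5 with the longest mutant H3K27me3, which covered each of them wholly. WT H3K27me3 covered 961 bp of the last of them and all of the others. The last also had WT H3K79me2 over 704 bp and none in the mutant. The one on chromosome 11 had a mutant H3K4me3 peak 1722 bp away and WT H3K4me1 over 1015 bp.

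The regions farthest from mutant H3K4me3 differed in what was left of H3K27me3. On chromosome 2 from 81893600 to 81894389, the nearest mutant H3K4me3 lay 1413450 bp away. H3K27me3 covered none of it in the mutant and all 790 bp in WT. On chromosome 9 from 29219164 to 29220491 (1013679 bp away), it covered none in the mutant and 802 bp in WT. On chromosome 2 from 67403200 to 67404750 (903871 bp away), it covered 616 bp in the mutant and 1245 bp in WT. The other 2, on chromosome 9 from 91256720 to 91257553 and from 91275948 to 91277044, were wholly covered in both genotypes. They lay on the same H3K27me3 peak, which was 48246 bp long in the mutant and 33084 bp in WT.

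Both regions with mutant H3K27ac were covered by it over their whole width. The one on chromosome 14 from 76955654 to 76956909 had mutant H3K27ac over 1256 bp, with H3K27me3 over 1256 bp in the mutant and 740 bp in WT. The one on chromosome 9 from 63932308 to 63933478 had mutant H3K27ac over 1171 bp, with no H3K27me3 in the mutant and 1097 bp in WT. The nearest mutant H3K4me3 peaks were 49251 and 61018 bp away.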

How the data were processed

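The 10 peak lists of 5 marks were used, each called by the authors in 1 library. Both inputs have no list and were not analysed here. The submitters' processing notes name Bowtie, MACS, MACS2, deepTools and the build mm9, without versions or roles. The H3K4me1, H3K27ac and H3K4me3 lists hold a deposited score per peak. The H3K27me3 and H3K79me2 lists are MACS2 broad peaks whose deposited columns give a score, a ratio (fold enrichment) and the −log10 of both p and q. The authors' values served to describe and group peaks within a list.

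Overlaps, covered lengths and gaps were computed with numpy 2.4.6 and scipy 1.17.1 in Python 3.11.15 (figures with matplotlib 3.10.9). The code was tested on simulated lists. The comparison groups were WT bivalent regions without H3K27ac that kept H3K4me3, 5 groups by score and 3 by WT H3K27me3 length. Named regions are the 5 first by score, width, mutant H3K27me3 length and distance to mutant H3K4me3, up to 5 by mutant H3K27ac length, and the 3 largest groups within 50000 bp. The members, groups and rules were chosen with earlier results of these data known. Gene lists and melanocyte markers could not be used without an mm9 annotation. The alternatives were other overlap rules, a stricter threshold (score of 100, −log10 q of 3), lists of equal length, sex chromosomes and merged peaks; a minimum WT score of 200 was chosen after seeing the data.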

Additional observations from a re-analysis of the deposited data

How the results depend on the processing

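With the WT H3K4me3 list limited to its 13691 best-scoring peaks, the length of the whole mutant list, there were 261 regions in place of 394. Of bivalent regions without H3K27ac, 17.7% then lacked a mutant peak in place of 23.5%. The medians were then 187 for score, 1168 bp for width, 1071 bp for mutant H3K27me3 and 42165 bp for the distance to mutant H3K4me3. This alternative removes the weakest WT peaks and no mutant peaks. A WT score of at least 200, chosen after seeing the data, left 113 regions and a share of 9.90%. The medians were then 261 for score, 1328 bp, 1216 bp and 48378 bp, and 0.0% had mutant H3K4me1, with an exact interval of up to 3.21%. The stricter threshold gave medians of 165 for score, 1112 bp for width and 1012 bp for mutant H3K27me3. The share with mutant H3K27me3 was 93.8% where WT H3K27me3 had to cover 50% of the WT peak, and 79.7% where mutant H3K27me3 had to cover 50% of the region. The other 63 of 81 values stayed within the interval of the value reported, or, for the number of regions, within 1.5 times. No paired analysis was possible because each genotype has 1 library per mark. Depth is unknown, so a weak mark and no mark cannot be told apart.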
